A study of Saccharomyces cerevisiae with 78 samples.

Results

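The RNA of BY4742 yeast carrying 1 fusion-gene plasmid, M497-F10, was compared with that of BY4742 carrying the control plasmid. BY4742 is a haploid laboratory strain of Saccharomyces cerevisiae of mating type alpha. Members were all libraries labelled M497-F10 (3) or control plasmid (3), so 6 of the 78 libraries of the series, and the 72 libraries of the other 24 fusion clones served as a reference for how far a level lay from the usual one. A fusion clone carries yeast genes, whole or in part, joined on a plasmid. M497-F10 is 1 clone, tested as 3 transformants, and the labels do not name the genes joined in it. Both groups were grown on galactose in medium without uracil, which keeps the plasmid in the cell and turns on GAL1-type promoters. Polyadenylated RNA was sequenced, and reads were counted per gene. The libraries of replicates 1 and 2 belong to a first set in each group, and that of replicate 3 belongs to a resubmitted one. The library name of control replicate 3 carries a plasmid name, PP2061, that the names of the other control libraries do not, so counts are also given without it.

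The 6 libraries held 11530199 to 15351634 counts each. Levels are given as CPM, counts scaled to a common library size. Alpha-specific genes were expressed in both groups, with STE3, the receptor for a-factor, at 259, 282 and 238 CPM in M497-F10 and 274, 256 and 211 CPM in the control. The a-specific receptor STE2 stood at 15.9 to 20.9 CPM in M497-F10 and 19.2 to 19.6 CPM in the control. Of 12 galactose genes 0 were called, where the share over all genes tested was 1.48%. The galactokinase GAL1 averaged 18236 CPM in M497-F10 and 20151 CPM in the control (log2 fold change -0.14, SE 0.0982, adjusted p = 0.641).

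The 2 transcripts that set M497-F10 apart belong to well-described pathways. Rim101 is a transcription repressor that yeast activates by proteolytic cleavage when the medium turns alkaline. The cleavage is done by Rim13 on the scaffold Rim20 at ESCRT complexes on membranes, below a sensor complex with Rim21, Dfg16, Rim9 and the arrestin-like Rim8, and YGR122W is needed for it. Rvb2 is an AAA+ ATPase that forms rings with its partner Rvb1 and works in the INO80 and SWR1 chromatin remodellers and in the chaperone complex R2TP.

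YGR122W had 5335, 5570.2 and 5531 CPM in the M497-F10 libraries, against 46.3, 50.9 and 40.7 CPM in the control libraries. RVB2 had 9958, 10254 and 11502 CPM in M497-F10 libraries, against 123, 122 and 143 CPM in control libraries. All 3 libraries of the clone lay far above all others, as the plot of both genes over the 26 groups shows: the 72 libraries of the other clones spanned 34.8 to 49.7 CPM for YGR122W and 107 to 168 CPM for RVB2. The fold over the control was 119 for YGR122W (log2 fold change 6.90, SE 0.0802, adjusted p = 2.30e-57) and 81.8 for RVB2 (log2 fold change 6.35, SE 0.0860, adjusted p = 5.40e-54; edgeR's quasi-likelihood test with Benjamini-Hochberg adjustment). Without control replicate 3 the log2 fold changes were 6.84 for YGR122W and 6.36 for RVB2. Reads of a plasmid copy and of the chromosomal copy fall on the same row, so the sources cannot be told apart.

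**Figure D1:**
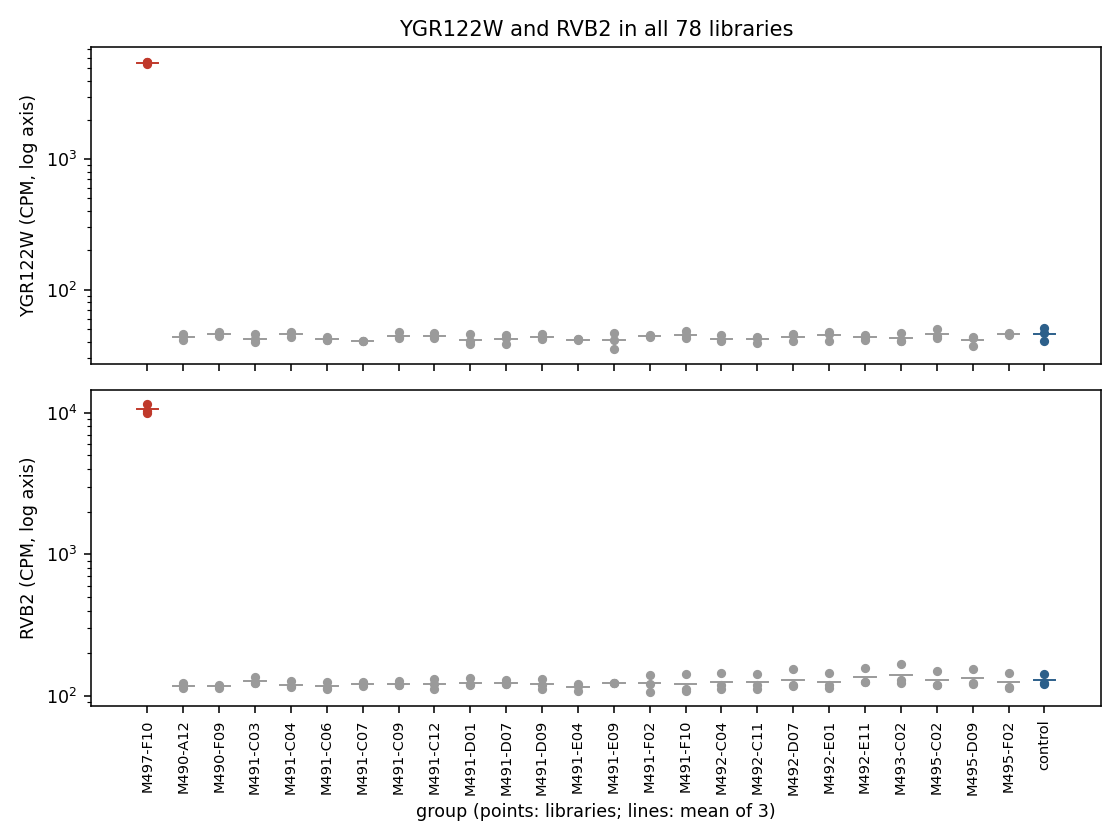
CPM (log axis) of YGR122W (top) and RVB2 (bottom) in each library, by group, with M497-F10 at the left, the other 24 clones in between and the control at the right; points are libraries and lines are means of 3. The 3 M497-F10 points stand at 5335 to 5570.2 CPM for YGR122W and 9958 to 11502 CPM for RVB2, while no other library passes 50.9 CPM for YGR122W or 168 CPM for RVB2.

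Scaled by coding length, RVB2 reached 7466 ± 579 CPM per kilobase in M497-F10 and 91.3 ± 8.19 in the control, and YGR122W reached 4532 ± 104 in M497-F10 and 38.0 ± 4.22 in the control (SD, n = 3 each). Among 5046 rows of single genes this put RVB2 at rank 12 and YGR122W at rank 16 in M497-F10, against ranks 1617 and 3409 in the control. In M497-F10 RVB2 came next below GAL7, at 7673 ± 947 CPM per kilobase, and YGR122W stood above actin, ACT1, at 2959 ± 202 (SD, n = 3 each). Per length, RVB2 was 1.59, 1.57 and 1.78 times YGR122W in the M497-F10 libraries, and 2.27, 2.05 and 2.99 times in the control libraries. The ratio was thus below that of every control library in all M497-F10 libraries. These values divide by the whole coding length of each gene. Whether whole genes or only parts are transcribed from the plasmid is not known. The ranks and the ratio in M497-F10 therefore need not give relative numbers of transcripts. RVB1, the gene of the partner ATPase, had 218, 218 and 307 CPM in M497-F10 and 229, 231 and 293 CPM in the control, and it did not pass the test (log2 fold change -0.03, SE 0.0556, adjusted p = 0.922).

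The genes next to YGR122W and RVB2 on the chromosome were not called. MEP1, an ammonium permease on the upstream side of YGR122W, averaged 79.0 CPM in M497-F10 and 94.8 CPM in the control (log2 fold change -0.26, adjusted p = 0.0969). PPT1, a protein phosphatase on its other side, had a log2 fold change of -0.07 (adjusted p = 0.945). Beside RVB2, the vacuolar ATPase subunit VMA11 had a log2 fold change of -0.00 (adjusted p = 0.991) and ENV7 one of -0.03 (adjusted p = 0.937). The signal thus stood on the rows of YGR122W and RVB2 and not on the rows of these 4 neighbours. The files list no construct sequence for M497-F10. The row that pools the construct sequences of other clones and of the control plasmid took 0.124% ± 0.0424 of the counts in M497-F10 and 0.412% ± 0.0665 in the control (SD, n = 3 each). All 3 shares of M497-F10 lay below those of the control (exact two-sided permutation test, p = 0.1, the smallest that 3 against 3 libraries allow). The row holds a sequence of the control plasmid and none of M497-F10. The test thus cannot tell a property of the clone from the make-up of the row. A low share was also seen in another clone, M492-E01, at 0.0989%, 0.0955% and 0.144%.

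Across the transcriptome, M497-F10 and the control differed at few genes and mostly by little. Of 5212 genes tested 77 passed an adjusted p of 0.05, which is 1.48%, with 48 higher in M497-F10 (0.921% of those tested) and 29 lower (0.556%). Of the 77 genes 8 changed at least 2-fold and 55 by less than 1.5-fold, and the median over all genes was 0.01 on the log2 scale. In 55 of the 77 genes, 71.4%, the 3 M497-F10 values and the 3 control values did not overlap, against 8.83% of all genes tested. All 77 genes had the same sign in both library sets. The genes were called from these same libraries, which favours both values that do not overlap and equal signs. At an unadjusted p of 0.05 there were 596 genes. Without a term for the library set 23 genes passed, without control replicate 2 there were 48, without control replicate 3 there were 61, and a fit of the 6 libraries alone gave 251. Of 41 named genes past the threshold beside YGR122W and RVB2, 14 passed under all 13 alternatives, and 34 passed without control replicate 3.

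**Figure D2:**
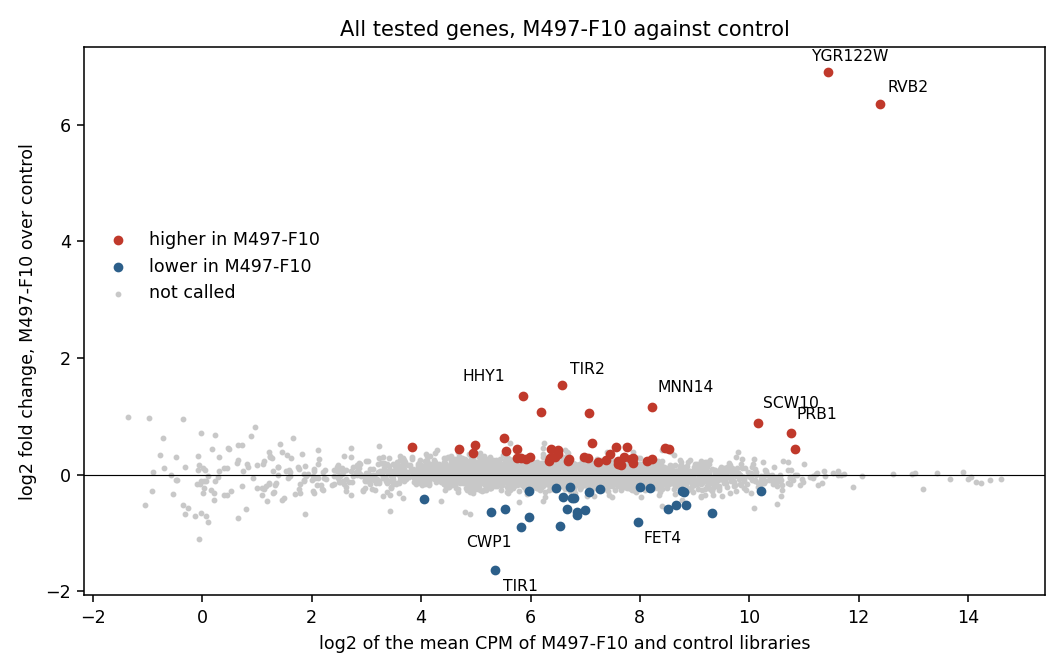
Log2 fold change of M497-F10 over control (vertical axis) against the log2 of the mean CPM of the 6 libraries (horizontal axis), 1 point a gene; red points are the 48 genes called higher in M497-F10, blue points the 29 called lower and grey points those not called. YGR122W and RVB2 stand alone above 6, and every other called gene lies between -1.64 and 1.53.

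The M497-F10 libraries were also set against those of the other clones. Against the mean of the other 24 clones, 809 genes passed in M497-F10, 15.5% of those tested, with 453 higher (8.69%) and 356 lower (6.83%). Of the 77 genes called against the control, 57 were also called there in the same direction, but the comparisons share the M497-F10 libraries. The number against the other clones fell to 375 without M497-F10 replicate 3 and 507 without M497-F10 replicate 2. M497-F10 and the control shared their plate rows, which per the library names were row E for the first set and row C of the resubmitted plate. The other clones lay in rows A to D of the first set and rows A and B of the resubmitted one. Plate row and clone thus cannot be told apart in that comparison, in either set. M497-F10 had the highest mean of the 26 groups for 21 of the 48 genes called higher and the lowest mean for 16 of the 29 called lower. For 5 of the genes called higher the control had the lowest mean of the 26 groups, and for 4 of those called lower it had the highest. The control was among the 5 lowest groups for 18 of the genes called higher and among the 5 highest for 15 of those called lower.

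**Figure D3:**
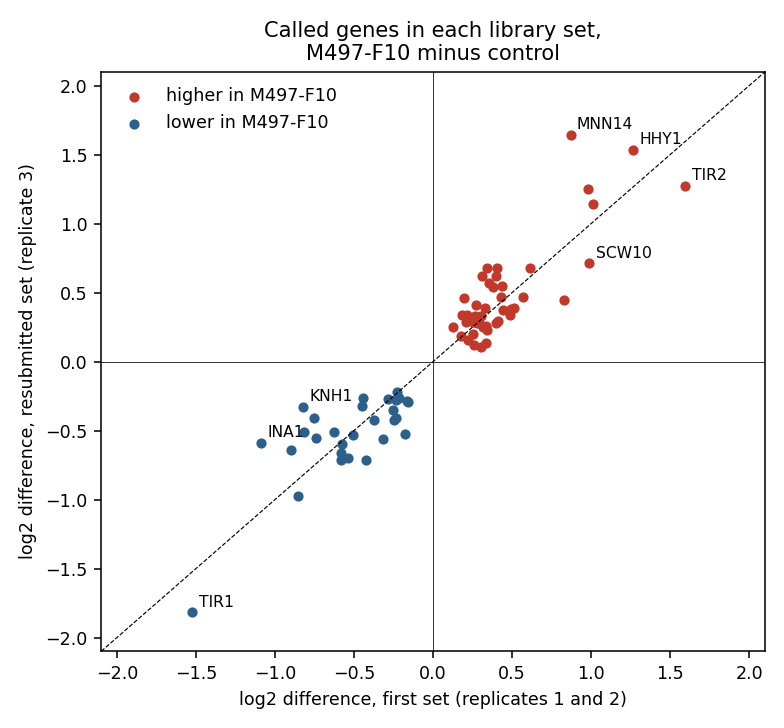
Log2 difference of M497-F10 minus control in the resubmitted set (vertical axis, replicate 3) against the first set (horizontal axis, mean of replicates 1 and 2) for the called genes other than YGR122W and RVB2; red points are called higher in M497-F10, blue points lower, and the dashed line marks equal differences. All points lie in the quadrants of equal sign, with MNN14 at 0.87 (first) and 1.64 (resubmitted), and INA1 at -1.09 (first) and -0.59 (resubmitted). The genes were called from these same libraries, which favours equal signs.

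Within the Rim101 pathway, a list drawn up because YGR122W stood out, 1 of the other 9 measured members, RIM8, was higher in M497-F10 and 0 were lower. The median with YGR122W was -0.01. RIM8 had 248, 231 and 273 CPM in M497-F10, against 161, 175 and 209 CPM in the control. The ranges did not overlap, and the fold was 1.38 (log2 fold change 0.47, SE 0.0837, adjusted p = 0.000179). RIM101 itself had 263, 249 and 276 CPM in M497-F10 and 270.3, 281 and 299 CPM in the control, a difference that missed the threshold (log2 fold change -0.11, adjusted p = 0.418). The protease gene RIM13, the scaffold gene RIM20 and the sensor genes RIM21, DFG16 and RIM9 had log2 fold changes of -0.14 to 0.04, and the ESCRT genes SNF7 and VPS20 had -0.02 and 0.05. None of these passed the test, and of 19 ESCRT genes 0 were called, beside 1.48% of all genes tested.

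Genes known to be repressed by Rim101 or to respond to alkaline medium formed a second list, of which 8 rows were measured. SMP1, NRG1 and again RIM8 were higher in M497-F10, where 0.921% of all genes tested were, and no member was lower. The median was 0.20 against 0.01 over all genes. This list, too, was drawn up with earlier results of these data known. It mixes repressed genes with genes that respond to alkaline medium, so its median does not measure the activity of Rim101. SMP1, which encodes a MADS-box transcription factor, had 168, 164 and 212 CPM in M497-F10, against 83.2, 81.9 and 96.0 CPM in the control. Every M497-F10 library lay above all control libraries and above all 72 libraries of the other clones, which reached 145 CPM (2.08-fold over the control, log2 fold change 1.05, SE 0.0795, adjusted p = 6.13e-16). NRG1, a repressor of glucose-repressed genes, had 197, 198 and 192 CPM in M497-F10, against 155, 146 and 158 CPM in the control. It too lay above all libraries of the other clones, which reached 186 CPM (log2 fold change 0.36, SE 0.0710, adjusted p = 0.000957).

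The other 5 rows did not pass. DIT1, a sporulation wall gene, had 32.1, 30.6 and 34.3 CPM in M497-F10 and 30.1, 25.7 and 26.3 CPM in the control (log2 fold change 0.24, adjusted p = 0.112). DIT2 had a log2 fold change of 0.15, NRG2 one of 0.05, the joined row of the sodium pumps ENA5 and ENA1 one of -0.06 and ZPS1 one of -0.26. Without a library set term RIM8 lost its call (adjusted p = 0.154), while SMP1 (adjusted p = 1.76e-06) and NRG1 (adjusted p = 0.0120) kept it.

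In vitro Rim101 binds the sequence TGCCAAG, so the 500 bases upstream of the start codon were searched for it, on both strands (CTTGGCA is the same site on the other strand). The motif was chosen after the expression values were known. Sequences and positions are from RefSeq build R64, matched by locus tag, and are not the contigs on which the counts were made. Of 46 single-gene rows called higher that had a window, 13 (28.3%) held the site, against 1 of 28 (3.57%) of those called lower and 327 of 4968 (6.58%) of those not called; over all 6000 protein-coding windows of R64 the share was 6.68%. The 13 were HHY1, MNN14, SMP1, SCW10, PRB1, ALP1, YPC1, YNL208W, OYE3, GOR1, NRG1, HSP31 and RMD5, and the 1 called lower was RIB1. PRB1 and HHY1 are read away from each other and share 1 site. The windows of TIR2, YPL278C and RIM8 did not hold these letters. No test was run on these shares, and a match is not evidence of binding. The stretches of 5 of the genes with the largest rises that hold the site, and of NRG1 from the list of Rim101-repressed genes, are shown 5′ to 3′ on the strand of the gene, with the site in capitals.
HHY1 (chrV:42327-42367, plus strand, site starting 308 bases upstream): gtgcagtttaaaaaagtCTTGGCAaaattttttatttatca
PRB1 (chrV:42327-42367, minus strand, 397 bases upstream): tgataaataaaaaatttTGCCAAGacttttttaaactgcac
MNN14 (chrX:550035-550075, plus strand, 459 bases upstream): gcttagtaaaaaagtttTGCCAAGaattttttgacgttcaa
SMP1 (chrII:595127-595167, minus strand, 286 bases upstream): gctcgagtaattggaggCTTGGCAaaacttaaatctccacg
SCW10 (chrXIII:880629-880669, minus strand, 420 bases upstream): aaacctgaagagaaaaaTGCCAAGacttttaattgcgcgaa
NRG1 (chrIV:543674-543714, minus strand, 328 bases upstream): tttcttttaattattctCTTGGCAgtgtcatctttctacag

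Several genes called higher lie side by side. HHY1 had 84.5, 86.7 and 78.5 CPM in M497-F10, against 34.9, 36.2 and 27.0 CPM in the control (log2 fold change 1.35, SE 0.0864, adjusted p = 7.06e-19). PRB1, which encodes vacuolar proteinase B, had 2232, 2078 and 2123 CPM in M497-F10, against 1127, 1311 and 1557 CPM in the control (log2 fold change 0.71, SE 0.0954, adjusted p = 2.64e-07). Both stood above all 72 libraries of the other clones. PCM1, the next tested gene, makes a precursor of chitin and was also higher (log2 fold change 0.45, SE 0.0587, adjusted p = 1.09e-07). SMP1 lies beside YPC1, an alkaline ceramidase (log2 fold change 0.45, adjusted p = 0.000512), and SCW10 beside FKS3, a glucan synthase homologue (log2 fold change 0.43, adjusted p = 3.95e-06). The genes of each of these pairs, and PRB1 and HHY1, are read away from each other, and a gene without a tested row of its own lies between SMP1 and YPC1 and between PRB1 and HHY1. Of 5026 neighbouring pairs of tested single-gene rows 6 had both genes called, and the pairs beside these were FMP46 with TRK2 and, on the lower side, YNL058C with OCA2. HHY1 and PCM1 are read in the same direction, and the genes of every other pair are read away from each other. Reads of a neighbour in the same direction that runs into a gene would count for it, whether or not the library kit keeps the strand. The kit is not stated to keep it, so reads of the opposite strand could count for a gene too. Without a library set term PRB1 (adjusted p = 0.314), PCM1 (0.381), SCW10 (0.970) and YPC1 (adjusted p of 1) lost their calls, while HHY1, SMP1 and FKS3 kept theirs.

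MNN14, which is related to the mannosylphosphate regulator MNN4, had 336, 344 and 562 CPM in M497-F10, against 186, 186 and 179.7 CPM in the control. The 3 control values lie within the range of the other clones, 129 to 202 CPM, and the M497-F10 values lie above it, with the resubmitted library highest (log2 fold change 1.16, SE 0.0813, adjusted p = 3.36e-17). YPL278C had 91.4, 95.8 and 110.4 CPM in M497-F10, against 45.1, 49.5 and 46.3 CPM in the control (log2 fold change 1.08, SE 0.0790, adjusted p = 1.90e-16), and its other-clone range ended at 58.4 CPM. YNL208W had 2241, 2108 and 1944 CPM in M497-F10, against 1519.6, 1584 and 1539 CPM in the control (log2 fold change 0.44, SE 0.0565, adjusted p = 9.83e-08). In all, 10 of the 48 genes called higher had all 3 libraries above all 72 libraries of the other clones, against 11 of all genes tested (0.211%). They were YGR122W, RVB2, TIR2, HHY1, MNN14, YPL278C, SMP1, PRB1, YNL208W and NRG1. The 11th was ARN1, a siderophore transporter, at 230.2, 232 and 281 CPM in M497-F10 and 187, 196 and 140.4 CPM in the control, which missed the threshold against the control (log2 fold change 0.50, adjusted p = 0.0868) but passed against the other clones (log2 fold change 1.04, adjusted p = 2.84e-12).

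**Figure D4:**
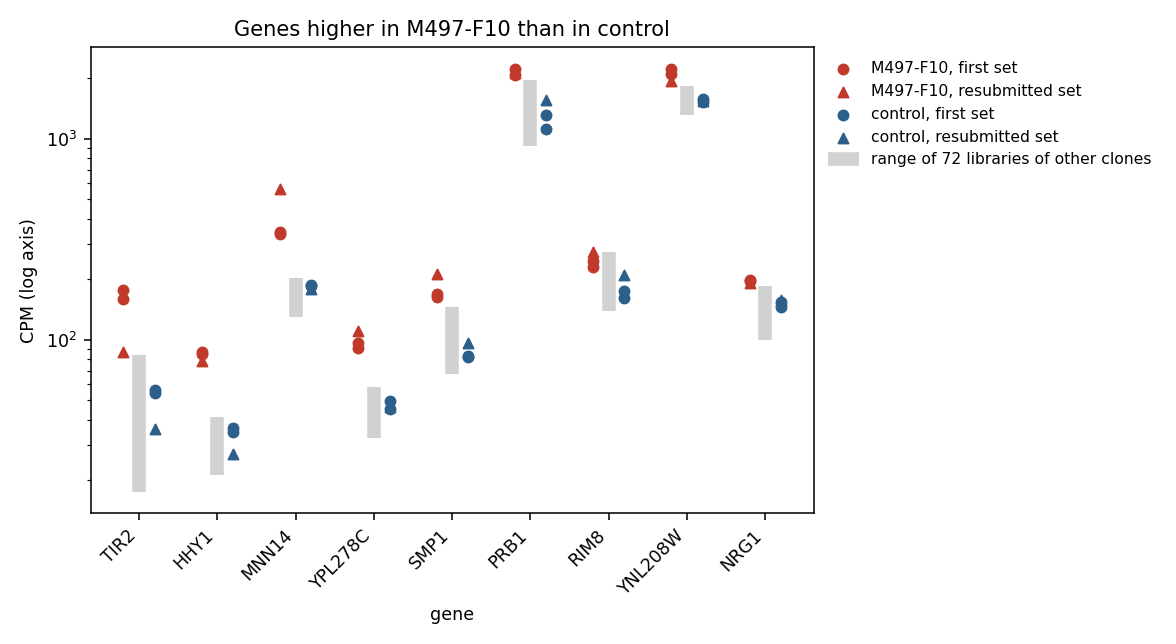
CPM (log axis) of 9 genes called higher in M497-F10; for each gene red points at the left are the M497-F10 libraries, the grey bar is the range of the 72 libraries of the other clones, and blue points at the right are the control libraries, with circles for the first set and triangles for the resubmitted set. Red points lie above the bar for 8 genes, and for RIM8 they lie inside it or level with its top.

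Among the smaller rises, GOR1, a glyoxylate reductase, averaged 426 CPM in M497-F10 and 315 CPM in the control (log2 fold change 0.43, adjusted p = 0.000466). OYE3, an NADPH oxidoreductase, averaged 29.8 CPM in M497-F10 and 22.0 CPM in the control (log2 fold change 0.44, adjusted p = 0.0216), and was the 1 of 19 oxidative stress genes called, beside 1.48% of all genes tested. THI4, for thiamine synthesis, was the 1 of 14 thiamine rows called (log2 fold change 0.41, adjusted p = 0.00351). ALP1, a basic amino acid permease, had a log2 fold change of 0.47 (adjusted p = 0.0246), YML131W one of 0.47 (adjusted p = 0.000389), and the joined row of the enolase-related ERR2 and ERR1 one of 0.54 (adjusted p = 0.00785). The ERR row counts near-identical subtelomeric copies that cannot be told apart. Without a library set term ALP1 (adjusted p = 0.781), OYE3 (0.579), THI4 (0.174), YML131W (0.970) and the ERR row (0.809) lost their calls. Leaving out 1 library ended the call of ALP1 for every library but M497-F10 replicate 2, and that of OYE3 for M497-F10 replicates 2 and 3 and control replicates 1 and 3. It ended the call of THI4 for M497-F10 replicate 3 and control replicate 2, that of GOR1 for M497-F10 replicate 3 and that of the ERR row for control replicate 1. ALP1 was not called in the first set alone.

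Genes of the cell wall moved in both directions. Of 25 measured members 4 were lower in M497-F10, TIR1, CWP1, TIP1 and UTR2, and 1 was higher, SCW10. Over all genes tested 0.556% were lower and 0.921% higher. The median of the list was -0.08. TIR1, a mannoprotein of cold and oxygen-poor conditions, had 15.3, 16.8 and 26.4 CPM in M497-F10, against 47.6, 45.2 and 93.6 CPM in the control (log2 fold change -1.64, SE 0.314, adjusted p = 0.000509). M497-F10 had the lowest mean of the 26 groups, but the other clones spanned 13.5 to 127 CPM, so that TIR1 varied widely in the series. Its paralog TIR2, outside the list, was the gene with the largest rise after YGR122W and RVB2, at 159, 178 and 86.9 CPM in M497-F10, against 54.4, 56.5 and 35.9 CPM in the control (log2 fold change 1.53, SE 0.157, adjusted p = 7.66e-11). All M497-F10 values of TIR2 lay above the other clones, whose highest library had 83.9 CPM. TIR1 and TIR2 are members of 1 gene family, and reads that match both would not be counted as unique.

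CWP1, a mannoprotein of the birth scar, had 41.9, 42.6 and 34.4 CPM in M497-F10, against 73.5, 79.6 and 67.9 CPM in the control. These were the lowest 3 values among M497-F10 and the other clones, whose lowest library had 50.8 CPM (log2 fold change -0.89, SE 0.113, adjusted p = 7.63e-08). TIP1, a cell wall mannoprotein, had 475, 526 and 494 CPM in M497-F10, against 829, 854 and 658 CPM in the control (log2 fold change -0.65, SE 0.165, adjusted p = 0.0201), while the control mean was the 3rd highest of the 26 groups. UTR2, a chitin transglycosylase named here after its values were seen, had 77.4, 76.3 and 117 CPM in M497-F10, against 112, 119 and 192 CPM in the control (log2 fold change -0.63, SE 0.118, adjusted p = 0.000389). SCW10, a wall protein related to glucanases, had 1191, 1165 and 2034 CPM in M497-F10, against 588, 599 and 1243 CPM in the control; the groups overlap only across the library sets (log2 fold change 0.89, SE 0.162, adjusted p = 0.000245). Outside the list, the glucan elongation gene GAS5 fell to 348, 319 and 331 CPM in M497-F10, against 423, 472 and 542 CPM in the control (log2 fold change -0.51, SE 0.0703, adjusted p = 4.09e-07). Without a library set term, 1 of the 25 members, CWP1, was called, and TIR1 (adjusted p = 0.934), SCW10 (adjusted p = 0.970) and TIP1 (adjusted p = 0.101) were not. TIP1 also lost its call without M497-F10 replicate 1 or 3 or control replicate 1 or 2.

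GFA1, the first enzyme of chitin precursor synthesis, fell to 393, 386 and 425 CPM in M497-F10, against 458, 469 and 569.8 CPM in the control (log2 fold change -0.30, SE 0.0433, adjusted p = 1.27e-06), while PCM1 of the same pathway was higher. Without a library set term GFA1 lost its call (adjusted p of 1). YPS6, which resembles the aspartyl proteases of the cell surface, had 37.9, 38.9 and 33.8 CPM in M497-F10, against 58.2, 53.5 and 55.0 CPM in the control (log2 fold change -0.60, SE 0.0914, adjusted p = 6.68e-06). SGE1, a drug exporter of the plasma membrane, had 75.9, 81.1 and 87.7 CPM in M497-F10, against 114, 119 and 133 CPM in the control (log2 fold change -0.58, SE 0.0554, adjusted p = 5.11e-12). YCL049C had 105, 104 and 92.9 CPM in M497-F10, against 156, 158 and 147 CPM in the control (log2 fold change -0.61, SE 0.0914, adjusted p = 3.95e-06). CWP1, YPS6, SGE1 and YCL049C had all 3 libraries below all 72 libraries of the other clones, which held for 6 of all genes tested (0.115%).

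**Figure D5:**
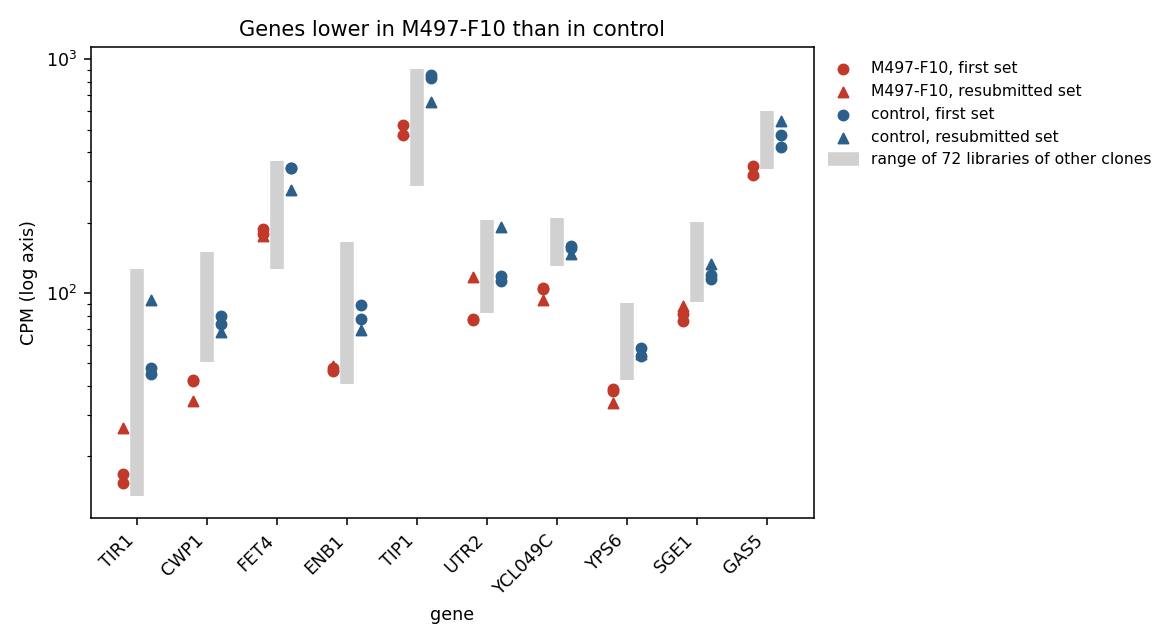
CPM (log axis) of 10 genes called lower in M497-F10, drawn as in the plot of the higher genes: red points at the left are M497-F10, the grey bar is the range of the 72 libraries of the other clones and blue points at the right are the control, with triangles for the resubmitted set. Red points lie below the bar for CWP1, YCL049C, YPS6 and SGE1 and near its middle for TIP1. For the others they lie inside or across its lower part.

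FET4, ENB1 and SMF1, which encode transporters, were lower in M497-F10. FET4, a low-affinity iron transporter, had 179, 187 and 176 CPM in M497-F10, against 341, 344 and 274 CPM in the control (log2 fold change -0.81, SE 0.191, adjusted p = 0.00926). The control had the 2nd highest mean of the 26 groups here, and FET4 missed the threshold against the other clones (adjusted p = 0.0634). ENB1, a transporter of iron-loaded enterobactin, had 46.3, 47.7 and 48.7 CPM in M497-F10, against 88.7, 77.2 and 69.3 CPM in the control (log2 fold change -0.73, SE 0.153, adjusted p = 0.00240). SMF1, a manganese transporter, had 102, 97.1 and 90.0 CPM in M497-F10, against 126, 131 and 121 CPM in the control (log2 fold change -0.39, SE 0.0615, adjusted p = 1.14e-05). ENB1 was the 1 of 20 measured iron uptake genes called, with a list median of -0.06, and FET4 the 1 of 15 zinc response rows, with a median of -0.14; of 8 copper genes 0 were called. Over all genes tested 1.48% were called, so counts of 1 or 0 say little about these lists. Against the other 24 clones the iron uptake list lay on the other side, with 9 of 20 higher, 1 lower and a median of 0.20. In that comparison 8.69% of all genes tested were higher and 6.83% lower, and plate row and clone cannot be told apart. Without a library set term FET4 (adjusted p = 0.154) and SMF1 (adjusted p = 0.711) lost their calls, and FET4 did so without M497-F10 replicate 1 or 2.

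Lists drawn up around the complexes that hold Rvb2 were counted next. The R2TP and ASTRA list also holds rows of genes that are not subunits of them. These are the kinase genes TEL1, MEC1, TOR1 and TOR2 and the joined rows of the chaperone genes HSC82 and HSP82. Of 15 measured rows of R2TP and ASTRA, 14 of INO80 and 15 of SWR1, 1 each was called, and it was RVB2 every time. The other 14, 13 and 14 rows gave no call, which at 1.48% called over all genes says little about the complexes. The medians were 0.01, 0.04 and 0.03. The signs were mixed, with 8 of 15, 9 of 14 and 8 of 15 rows positive, RVB2 included. In the R2TP and ASTRA list TEL1 had a log2 fold change of 0.10 (adjusted p = 0.729) and MEC1 one of -0.06 (adjusted p = 0.829). In INO80 IES6 had one of 0.11 (adjusted p = 0.732) and ARP5 one of -0.05 (adjusted p = 0.714). In SWR1 ARP6 had one of 0.15 (adjusted p = 0.372) and BDF1 one of -0.11 (adjusted p = 0.357). ARP6 had 46.2, 42.7 and 53.1 CPM in M497-F10 and 42.4, 41.1 and 44.1 CPM in the control.

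Some lists leaned to 1 side with few calls. Of 33 measured proteasome genes 31 had a positive log2 fold change, with a median of 0.12, and 2 were called higher. RPN9, a lid subunit, had 139.5, 143 and 155 CPM in M497-F10, against 119, 113 and 127 CPM in the control (log2 fold change 0.29, SE 0.0665, adjusted p = 0.00843), and the ATPase subunit RPT4, named after its value was seen, had a log2 fold change of 0.18 (adjusted p = 0.0364). For both, the control had the lowest mean of the 26 groups while M497-F10 stood at ranks 8 and 15. Against the other 24 clones the proteasome list lay on the other side, with 0 higher, 6 lower and a median of -0.06. In that comparison 8.69% of all genes tested were higher and 6.83% lower, and plate row and clone cannot be told apart. Of 41 measured amino acid synthesis genes controlled by Gcn4, 39 had a negative log2 fold change, with a median of -0.23. THR4 (log2 fold change -0.28, adjusted p = 0.0128) and LEU9 (log2 fold change -0.38, adjusted p = 0.0258) were called lower. Against the other 24 clones 0 of the 41 were higher and 11 lower, with a median of -0.14. THR4 passed there (adjusted p = 0.00480) and LEU9 did not (adjusted p = 0.225). In a fit of the 6 libraries alone 24 of the 41 were called lower, where 149 genes in all were called lower. Without a library set term 0 of the 41 were, where 8 genes in all were called lower. Leaving out M497-F10 replicate 1 or 2 or control replicate 2 or 3 ended the calls of THR4, which was named after its value was seen, and LEU9, and leaving out M497-F10 replicate 3 or control replicate 1 or 2 ended those of RPN9 and RPT4. Of 62 mitochondrial ribosomal protein genes 51 were positive and 1 was called higher, and of 19 oxidative stress genes 15 were positive. Of 24 nitrogen catabolite repression genes 18 were negative, as were 13 of 17 pheromone response genes, and 0 of either list were called. Over all genes tested 54.2% had a positive log2 fold change and 1.48% were called. Of the 42 lists 29 had no member called, among them the Hsf1 chaperones, the general stress genes, the cytosolic ribosomal proteins and the unfolded protein response genes.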

How the data were processed

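Counts were whole numbers per gene, made and deposited by the authors without normalization. Per the submitters' processing notes, the tools were fastp 0.23.1 (trimming, and removal of duplicates by molecular identifier), STAR 2.5.2b (alignment, build R64) and featureCounts of Subread 1.5.2 (unique hits). The rows of the deposited files instead place genes on the contigs of a different assembly, beside 24 construct sequences, and R64 was used by locus tag only, for names and sequences. Of 5229 gene rows 5058 matched 1 locus tag, 129 join the tags of several genes and 42 did not match. A row without a name (construct sequences) held 0.0978% to 0.470% of the counts of the 6 libraries and a row named UNDEF 2.22% to 2.53%; both stayed out of library sizes and tests.

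edgeR 4.0.16 in R 4.3.3 was fitted to the 78 libraries together, with group and library set as terms (51 residual degrees of freedom). Scaling was by TMM. Genes with low counts were removed with filterByExpr by group, which took out 17 genes, so that 5212 were tested. Quasi-likelihood tests set M497-F10 against the control and against the mean of the other 24 clones, with Benjamini-Hochberg adjustment over all genes and a threshold of 0.05. Each standard error was computed as log2 fold change divided by the square root of F. Replicates are biological replicates per the labels, but replicates 1 and 2 lay close together: their chi-square per gene was 3.16 in M497-F10 and 7.85 in the control, against 119.9 to 134 between the sets, where about 1 is sampling noise. Same-numbered libraries of M497-F10 and the control deviated together, with correlations across genes of 0.653, 0.774 and 0.880, so the numbers pair the samples by library set. The difference of replicate 1 minus 2 correlated by -0.10 between the groups, so within the first set no pairing was seen.

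The named genes were up to 20 genes on each side called against the control with 10 CPM or more in either group and no overlap, up to 5 on each side called in both comparisons, up to 4 members of each described list, all members of the Rim101 and RVB2-related lists, and the neighbours of YGR122W and RVB2. For length not all are described. The members, the lists and this rule were chosen with earlier results of these data known. Alternatives were RLE size factors, no filter, DESeq2 1.42.0, no set term, a replicate block, the first set alone, the 6 libraries alone, and leaving out each of the 6 libraries. The test was tried on simulated counts.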

Additional observations from a re-analysis of the deposited data

How the results depend on the processing

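The number of genes called between M497-F10 and the control was 77 in the fit described, 79 with RLE size factors (46 higher, 33 lower), 79 without a filter, 90 with DESeq2 (51 higher, 39 lower) and 77 with the replicate block. It was 23 without a library set term (15 higher, 8 lower), 332 with the first set alone (171 higher, 161 lower) and 251 with the 6 libraries alone (102 higher, 149 lower), and 23, 75 and 75 of these were among the 77. Leaving out 1 library gave 48 to 75 genes, lowest without control replicate 2. Against the other 24 clones the number was 809, with 175 without a set term, 1497 with the first set alone, 802 with the replicate block, and 375 to 846 when 1 library was left out. The log2 fold change of YGR122W stayed between 6.84 and 6.96 and that of RVB2 between 6.34 and 6.36 when 1 library was left out, and they were 6.90 and 6.35 with the replicate block. The construct row difference was -0.325 to -0.260 percentage points under leave-one-out. Of the 41 named genes called beside these, the block changed none, the lack of a set term ended 23 calls, and leaving out 1 library ended 7 to 12; no direction turned in any of the 13 alternatives. The causes of these shifts were not tested. No scaling moved the median of all genes by more than 0.02. The resubmitted set gives 1 library a group, so its spread within a group could not be measured.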
